A study of Bos taurus with 8 samples.

Results

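Satellite cells (SCs) were compared with fibro-adipogenic progenitors (FAPs) that had grown beside them in the same dishes, after 5 passages of an unsorted bovine muscle culture. The cells compared were those of the passage 5 (P5) library that had been assigned to donors 1, 2 and 9 and that the deposited annotation calls SCs or FAPs, 2721 cells in all, 550 of them SCs and 2171 FAPs, out of 10405 annotated cells in that library and 36129 in the series. All 3 donors were female Belgian Blue cattle, donors 1 and 9 adults and donor 2 a calf, and their semitendinosus muscle was digested and plated without sorting. The cultures were grown on fibronectin in a serum-free growth medium, and no group received another treatment or carried an engineered allele. The other 6 donors of the library had been sorted, donors 5, 6 and 10 into SC cultures on laminin-521 and donors 4, 7 and 8 into FAP cultures on collagen I. They were Belgian Blue cattle too. Donor 5 was a female calf, donor 6 a male adult and donor 10 a male calf. Donors 4 and 7 were female calves and donor 8 a male adult. Cells of all 9 animals were pooled into 1 droplet library and told apart afterwards by their genotypes. Raw counts of unique molecular identifiers (UMIs) were added up over the cells of each donor and type, which gave 6 pseudobulks, and SCs and FAPs of a donor were compared as a pair. The authors had assigned the cell type labels from the same expression values, so the tests below measure how steady a difference was over 3 animals and are not independent evidence that the types differ.

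SCs are the stem cells of skeletal muscle. They lie between the muscle fibre and its basal lamina, carry the transcription factor PAX7, and on activation express MYF5 and MYOD1 and divide as myoblasts, which later express MYOG, leave the cell cycle and fuse into multinucleate myotubes. FAPs are interstitial mesenchymal cells marked by the receptor PDGFRA. They make much of the muscle's collagen, support SCs through secreted factors, and can become fibroblasts or adipocytes, and in a mixed culture they compete with myoblasts for space.

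SCs made up 44.2% of the annotated cells of donor 1 at P5 (354 of 801, exact binomial interval 40.7 to 47.7%), 5.11% in donor 2 (51 of 998, 3.83 to 6.66%) and 15.7% in donor 9 (145 of 922, 13.4 to 18.2%). The SC share thus differed between the 3 dishes by more than counting error, and no cell type other than SCs and FAPs was annotated among these donors' P5 cells. At passages 0, 2 and 8 the share was 27.3%, 24.1% and 12.2% in donor 1, 5.75%, 11.1% and 2.78% in donor 2, and 33.7%, 19.0% and 7.55% in donor 9. The base differed at passage 0, where other cell types were annotated too and FAPs were 55.9%, 70.6% and 51.8% in donors 1, 2 and 9. At the later passages SCs and FAPs were all annotated cells. In donor 1 the P5 share was the highest of the 4 passages, and in all 3 donors the share at passage 8 was below that at P5, with intervals that overlapped in donor 2 only. Each passage was 1 library, so a difference between passages and a difference between libraries cannot be told apart.

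**Figure D1:**
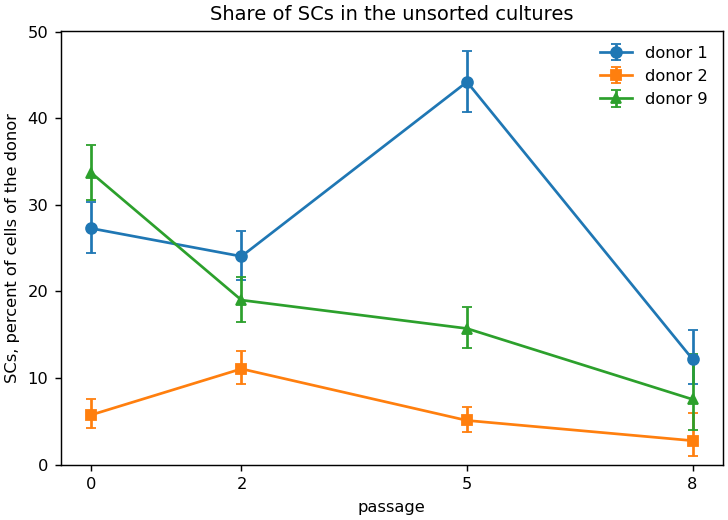
Percent of each donor's annotated cells labelled SCs (y axis) at passages 0, 2, 5 and 8 (x axis) in the unsorted cultures, 1 line per donor, with exact 95% binomial intervals as bars. At P5 donor 1 stands at 44.2%, donor 9 at 15.7% and donor 2 at 5.11%.

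The pseudobulks held 770816 to 6046468 UMIs in SCs and 14360436 to 22459370 in FAPs, so SC values, above all those of donor 2 with 51 cells, carry the larger counting error. An SC yielded fewer UMIs than a FAP in every donor, with medians of 15650.5, 14803 and 13328 per SC in donors 1, 2 and 9 against 32167, 23083 and 28895 per FAP. Medians of 3323 to 3548 genes were detected per SC and of 4010 to 4789 per FAP, and mitochondrial UMIs took a median of 4.29 to 4.64% in SCs and of 3.71 to 4.06% in FAPs. Levels below are counts per 1000000 UMIs (CPM) of a pseudobulk with totals scaled by the TMM method, or unscaled CPM where no such factor was used, so they do not carry this difference in total UMIs per cell. A lower CPM can mean fewer cells with a transcript or fewer transcripts per cell, which a sum does not tell apart. Among all 14498 barcodes of the library 19.1% were doublets of different donors and had been removed, whereas a droplet with an SC and a FAP of the same donor cannot be found by genotype. From 1 to 10 of the 2721 barcodes recurred in each of the other 4 libraries.

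The labels were set beside their defining markers. All 10 SC markers chosen were higher in SCs and all 9 FAP markers with enough counts were higher in FAPs. Since the labels came from the same expression values, this does not test them. With SCs that had no MYOG UMI, 8 of the 10 and 7 of the 9 calls were kept. TCF21, the other FAP marker, had 11 UMIs in FAPs and none in SCs and was not tested. FAP transcripts were nevertheless abundant in cells labelled SCs. PDGFRA, DCN, LUM and ITGA5 together had a median of 32 UMIs per SC and 264 per FAP, while those of ITGA7, MYF5, NCAM1 and DES had a median of 5 per SC and 0 per FAP, and 462 of 550 SCs held more UMIs of the former genes than of the latter. No FAP of 2171 held more SC-marker than FAP-marker UMIs. DCN and LUM each had more UMIs in both types than any of the SC markers summed here. The count in FAPs was thus nearly set in advance, and neither it nor that in SCs tests the labels of single cells. Markers of other cell types were counted as well. Of the 12 endothelial markers 3 to 8 were seen per pseudobulk, with summed levels of 11.9 to 16.9 unscaled CPM in SCs and 12.1 to 22.5 in FAPs, and of the 12 leukocyte markers 2 to 8 were seen, with sums of 6.49 to 12.8 in SCs and 15.2 to 21.5 in FAPs. The summed levels of 9 measured glial markers were 166 to 218 in SCs and 60.03 to 74.3 in FAPs, mostly from CNP, which many cells express, and S100B. Those of 12 smooth muscle and mesenchymal markers were 45.4 to 59.6 in SCs and 111 to 266 in FAPs, and those of 8 tenocyte markers 288 to 370 in SCs and 303 to 714 in FAPs. PTPRC, the pan-leukocyte marker, and the glial marker SOX10 had no UMI in either type, and PECAM1 had none in SCs and 2 in FAPs, whereas the 2 endothelial markers with enough counts for the test went opposite ways. CLDN5 was higher in SCs (log2FC 5.48, SE 0.56, 54 UMIs against 7) and VWF in FAPs (log2FC -1.14, SE 0.24, 50 UMIs against 834), the latter call lost without donor 9 and without the SCs that had a MYOG UMI. The part of such cells in the results was not tested.

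Of 11067 genes tested, 971 were higher in SCs (8.77%) and 1038 were higher in FAPs (9.38%), by edgeR's quasi-likelihood F test with donor as a block, where a call needs a log2 fold change (log2FC, SC minus FAP) beyond 1 in size and a Benjamini-Hochberg adjusted p under 0.05. The difference had the same sign in 3 of 3 donors for 952 and 1023 of them. The shares of 8.77% and 9.38% are the background for the counts of list members below. The median log2FC of all genes was 0.00, a value that TMM scaling holds near 0. A log2FC above 5 was reached by 156 genes higher in SCs and by 32 higher in FAPs, and one above 3 by 320 and 225. Of the genes higher in FAPs 214 had a mean of at least 100 CPM in FAPs, and of those higher in SCs 92 had such a mean in SCs. The 3 values of the types did not overlap at 2474 genes with SCs above FAPs (22.4%) and at 2707 with FAPs above SCs (24.5%).

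**Figure D2:**
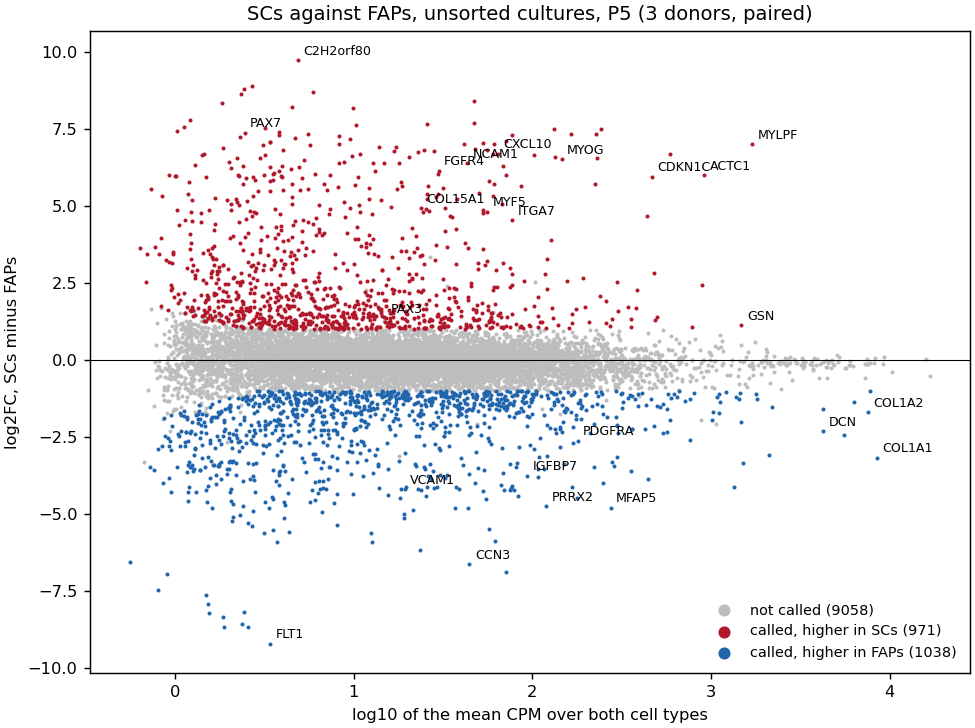
Log2FC of SCs minus FAPs (y axis) against the log10 of the mean CPM over both cell types (x axis) for the 11067 genes tested, each point 1 gene, red for the 971 called higher in SCs, blue for the 1038 called higher in FAPs and grey for the rest. Muscle genes such as MYLPF and MYOG lie far above 0 at high levels, and the collagens and DCN lie at the right end below 0.

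All 6 myogenic regulatory and PAX factors were higher in SCs. MYOD1, a master regulator of the myogenic programme, stood at 75.9, 74.5 and 71.2 CPM in the SCs of donors 1, 2 and 9 and at 1.99, 1.83 and 2.02 CPM in their FAPs, a log2FC of 5.23 (SE 0.15, edgeR adjusted p = 6.3e-11). MYF5, its partner in commitment to the lineage, had 107, 122 and 94.2 CPM in SCs and 1.55, 5.39 and 4.67 CPM in FAPs, a log2FC of 4.82 (SE 0.35, edgeR adjusted p = 6.0e-04). Both were nearly level over the SCs of the 3 donors, whose dishes ranged from 5.11 to 44.2% SCs. PAX7, which marks the stem cell state, was scarce at P5, with 46 UMIs in all SCs and 1 in all FAPs, a CPM ratio of 254-fold (95% exact interval 43.4 to 10251). It reached 4.03, 3.73 and 6.95 CPM in SCs, against 0, 0 and 0.05 CPM in FAPs. MYF6, which acts late in differentiation, had 21.2, 27.3 and 23.0 CPM in SCs and 1.10, 2.87 and 1.18 CPM in FAPs, a log2FC of 3.91 (SE 0.25, edgeR adjusted p = 9.4e-08). PAX3, the paralogue of PAX7 used by embryonic muscle progenitors, differed least of the 6. It stood at 22.1, 27.3 and 17.4 CPM in SCs and 11.5, 6.32 and 6.24 CPM in FAPs, a log2FC of 1.35 (SE 0.22, edgeR adjusted p = 2.9e-04), and the types did not overlap.

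MYOG, which drives terminal differentiation, had 385, 206 and 275 CPM in SCs and 3.09, 2.77 and 3.29 CPM in FAPs, a log2FC of 6.51 (SE 0.14, edgeR adjusted p = 6.2e-12). Its UMIs were spread unevenly over the SCs. The tenth of SCs with the most MYOG UMIs held 88.8%, 97.6% and 99.1% of them in donors 1, 2 and 9, and 52, 4 and 11 SCs had at least 5. For MYF5 the same share was 44.5%, 36.7% and 43.3%, and for the surface integrin ITGA7 42.0%, 33.1% and 46.7%, so those genes were carried by many more cells than MYOG was. At least 1 MYOG UMI was seen in 20.3%, 17.6% and 13.8% of SCs and in 7.83%, 5.81% and 8.24% of FAPs. After each cell had been thinned to 10000 UMIs, which left out 109 SCs and 81 FAPs below that depth, the shares were 13.5%, 20.0% and 17.1% in SCs and 3.18%, 2.33% and 3.07% in FAPs. Since few cells set the level of such genes, the counts of genes and list members that differed between SCs and FAPs at P5 were also computed with only the 449 SCs that had no MYOG UMI (282, 42 and 125 in donors 1, 2 and 9), an alternative chosen after the data had been seen. It gave 800 genes higher in SCs (7.23%), 734 of them among the 971, and 933 higher in FAPs (8.43%), 877 of them among the 1038. Of the 6 factors, PAX7, MYF5, MYOD1, MYF6 and PAX3 stayed higher in these SCs, and MYOG was lower there by construction.

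Among 19 other myogenic transcription factors and cofactors with enough counts, 8 were higher in SCs and 3 in FAPs, with a median log2FC of 0.79 against 0.00 over all genes. EYA4, a transcriptional cofactor, had 35 UMIs in SCs and 3 in FAPs, a CPM ratio of 64.4-fold (95% exact interval 20.3 to 327). The called genes higher in SCs included regulators that restrain the myogenic factors. MDFI, which binds and holds back the MyoD family, stood at 65.6, 133 and 66.0 CPM in SCs and 6.11, 17.9 and 10.7 CPM in FAPs (log2FC 2.97, SE 0.15), and ID1, which sequesters their partner E proteins, at 96.8, 153 and 139.8 and 16.4, 34.3 and 23.9 CPM (log2FC 2.43, SE 0.11). SIX4 (log2FC 1.93, SE 0.31) and TCF12 (log2FC 1.72, SE 0.13), an E protein, were higher in SCs as well. MEF2C, a late differentiation factor, was 4.54 higher on the log2 scale with all SCs and stood at -1.65 without the SCs that had a MYOG UMI, where its edgeR adjusted p was 0.48. On the other side were SNAI2 (log2FC -1.70, SE 0.11), a repressor of epithelial and myogenic genes, HEY1 (log2FC -1.87, SE 0.45), a Notch effector whose call was lost without donor 1, and EYA2 (log2FC -2.81, SE 0.52).

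Surface and adhesion genes linked with satellite cells divided between the types. Of 18 tested, 8 were higher in SCs and 5 in FAPs, and all 13 calls were kept with SCs that had no MYOG UMI. ITGA7, the laminin-binding integrin subunit of muscle, had 149, 150.3 and 145 CPM in SCs and 6.18, 5.09 and 7.82 CPM in FAPs, a log2FC of 4.53 (SE 0.13, edgeR adjusted p = 1.0e-10). It was even over the 3 donors, and at least 1 UMI was found in 73.4%, 70.6% and 72.4% of SCs and in 13.4%, 10.1% and 14.7% of FAPs (63.5%, 67.5% and 70.5%, and 5.68%, 4.32% and 5.21%, at 10000 UMIs per cell). NCAM1, the adhesion molecule CD56, had 89.7, 70.8 and 94.6 CPM in SCs and 0.663, 0.840 and 1.43 CPM in FAPs, a log2FC of 6.39 (SE 0.18, edgeR adjusted p = 6.3e-11). FGFR4, the fibroblast growth factor receptor of the myogenic lineage, had 49.9, 74.5 and 52.5 CPM in SCs and 1.10, 0.593 and 0.787 CPM in FAPs, a log2FC of 6.14 (SE 0.24, edgeR adjusted p = 1.0e-09). The groups of these 3 genes lay far apart in every donor. CXCR4, the receptor of CXCL12, reached 3.88, 16.1 and 11.3 CPM in SCs and at most 0.25 CPM in FAPs (log2FC 6.48, SE 0.55). CDH15, the M-cadherin, was called too (log2FC 5.79, SE 0.57), but a UMI was seen in no more than 9.32%, 11.8% and 8.97% of SCs. The tetraspanin CD82 (log2FC 3.23, SE 0.17), the adhesion molecule CADM1 (log2FC 1.87, SE 0.28) and dystroglycan DAG1 (log2FC 1.76, SE 0.23) completed the SC side.

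VCAM1, a satellite cell marker in mouse muscle that mesenchymal cells also carry, went the other way. It had 1.34, 1.24 and 3.91 CPM in SCs and 36.3, 34.2 and 39.1 CPM in FAPs, a log2FC of -4.20 (SE 0.25, edgeR adjusted p = 5.2e-08). Caveolin CAV1 had 547, 312 and 473 CPM in SCs and 1387, 739 and 1127 CPM in FAPs, a log2FC of -1.28 (SE 0.08, edgeR adjusted p = 7.1e-08). N-cadherin CDH2 (log2FC -1.50, SE 0.15), the syndecan SDC3 (log2FC -1.37, SE 0.29, call lost without donor 1) and CDH4 (log2FC -2.02, SE 0.51, call lost without donor 1, with DESeq2 and with the spread estimated together with passage 2) were the other 3 higher in FAPs. ITGB1, the common partner chain of these integrins, had 429.6, 376 and 414 CPM in SCs and 578, 455 and 482 CPM in FAPs, a log2FC of -0.31 that lay short of the limit. CD9, a tetraspanin, had 751, 534 and 685 CPM in SCs and 1213, 1196 and 1198 CPM in FAPs (log2FC -0.88) and was not called either, although its 3 FAP values lay above its SC values.

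Genes of myoblast fusion and early muscle differentiation were the second group by median, after the sarcomere genes, with 25 of 27 higher in SCs and a median log2FC of 5.72. Desmin, DES, the muscle intermediate filament, had 381, 586 and 353 CPM in SCs and 11.9, 6.97 and 6.20 CPM in FAPs, a log2FC of 5.72 (SE 0.34, edgeR adjusted p = 8.8e-04). CDKN1C, a cell cycle inhibitor that accompanies exit from the cycle in muscle, had 916, 1273 and 570.4 CPM in SCs and 10.8, 17.5 and 14.5 CPM in FAPs, a log2FC of 5.95 (SE 0.27, edgeR adjusted p = 7.0e-05). MYMK, the membrane protein needed for fusion, had 66.2, 48.4 and 33.4 CPM in SCs and 0.442, 0.395 and 0.393 CPM in FAPs, a log2FC of 6.82 (SE 0.22, edgeR adjusted p = 2.4e-10). It was seen in 13.8%, 9.80% and 6.90% of SCs and in about 1% of FAPs (1.34%, 0.845% and 1.03%). RAPSN, which clusters acetylcholine receptors, had 114, 169 and 137 CPM in SCs and 1.47, 2.82 and 2.26 CPM in FAPs, and CHRNA1, a chain of that receptor, had 44.8, 57.1 and 50.8 and 1.10, 1.09 and 0.836 CPM, with log2FC of 5.99 (SE 0.13) and 5.66 (SE 0.20). MEGF10, a receptor that keeps myoblasts dividing, was at 10.6, 17.4 and 6.08 CPM in SCs and at most 0.10 CPM in FAPs (log2FC 6.99, SE 0.50). CDKN1A and the intermediate filament VIM did not pass, with log2FC of 0.67 and 0.04.

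Of the 25 calls in this group 19 were kept with SCs that had no MYOG UMI, and the median log2FC went from 5.72 to 3.64. RAPSN went from 5.99 to 5.86 (edgeR adjusted p = 3.2e-11). CDKN1C went from 5.95 to 3.73 (SE 0.57, edgeR adjusted p = 0.041), so its call was kept at a lower log2FC. The tenth of SCs with the most CDKN1C UMIs held 74.8%, 64.7% and 84.9% of them in donors 1, 2 and 9. MYMK went to 1.59 (edgeR adjusted p = 0.087) and DES to 2.45 (edgeR adjusted p = 0.19), and both were among the 6 genes that lost their calls.

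Sarcomere genes had the highest median log2FC of the 27 lists. With 27 of 30 higher in SCs, it was 6.65. MYLPF, a fast myosin light chain and the SC gene with the highest mean level among those called, had 3016, 3717 and 3379 CPM in SCs and 21.8, 29.7 and 27.7 CPM in FAPs, a log2FC of 7.00 (SE 0.10, edgeR adjusted p = 2.2e-13). ACTC1, the cardiac actin that developing skeletal muscle also uses, had 1687, 2392 and 1332 CPM in SCs and 28.5, 30.6 and 24.1 CPM in FAPs, a log2FC of 5.99 (SE 0.12, edgeR adjusted p = 3.4e-12). MYH3, the embryonic myosin heavy chain, had 387, 361 and 236 CPM in SCs and 2.36, 2.07 and 1.62 CPM in FAPs, a log2FC of 7.33 (SE 0.12, edgeR adjusted p = 5.5e-13). CKM, the muscle creatine kinase bound to the sarcomere, had 86.0, 130.4 and 63.4 CPM in SCs and 0.589, 0.296 and 0.443 CPM in FAPs, a log2FC of 7.70 (SE 0.22, edgeR adjusted p = 9.7e-11). These levels were of like size in the 3 donors but came from few cells. The tenth of SCs with the most MYLPF UMIs held 94.4%, 98.5% and 99.3% of them, a single SC of donor 1 held 1968, and the median SC had 1, 1 and 0 MYLPF UMIs. At least 5 CKM UMIs were found in 15, 3 and 4 SCs. With SCs that had no MYOG UMI, 10 of the 27 calls were kept, the median fell from 6.65 to 1.30, and CKM, MYH3 and ACTC1 lost their calls, with log2FC of -0.04, 0.90 and 2.68 (edgeR adjusted p = 0.98, 0.092 and 0.092). Among the 30 genes, 1 was then called higher in FAPs. The 3 tropomyosins that most cells express did not pass, with log2FC of 0.49 for TPM1, 0.34 for TPM2 and -0.48 for TPM3.

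Sarcomere transcripts were also counted in the FAPs of the other cultures at P5. Sarcomere genes other than TPM1, TPM2 and TPM3 summed to 113, 117 and 106 unscaled CPM in the FAPs of donors 1, 2 and 9 and to 126, 125 and 136 in the FAPs of the sorted FAP cultures of donors 4, 7 and 8, where SCs were 0.738%, 0.425% and 0.347% of the cells. In the cells labelled FAPs in the sorted SC cultures of donors 5, 6 and 10, where SCs were 43.0%, 98.0% and 93.9% of the cells, they summed to 214, 306 and 228, above all values of the other FAPs. In the SCs of the unsorted cultures they summed to 10055, 12087 and 9303. MYLPF alone stood at 20.6, 26.8 and 25.6 unscaled CPM in FAPs beside SCs and at 27.1, 29.9 and 33.0 in FAPs of FAP cultures, and the values of 23.0, 40.6 and 21.6 in those of the SC cultures of donors 5, 6 and 10 lay within that range in donors 5 and 10. All these cells shared 1 library, and the part that free transcripts had in these levels was not tested.

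**Figure D3:**
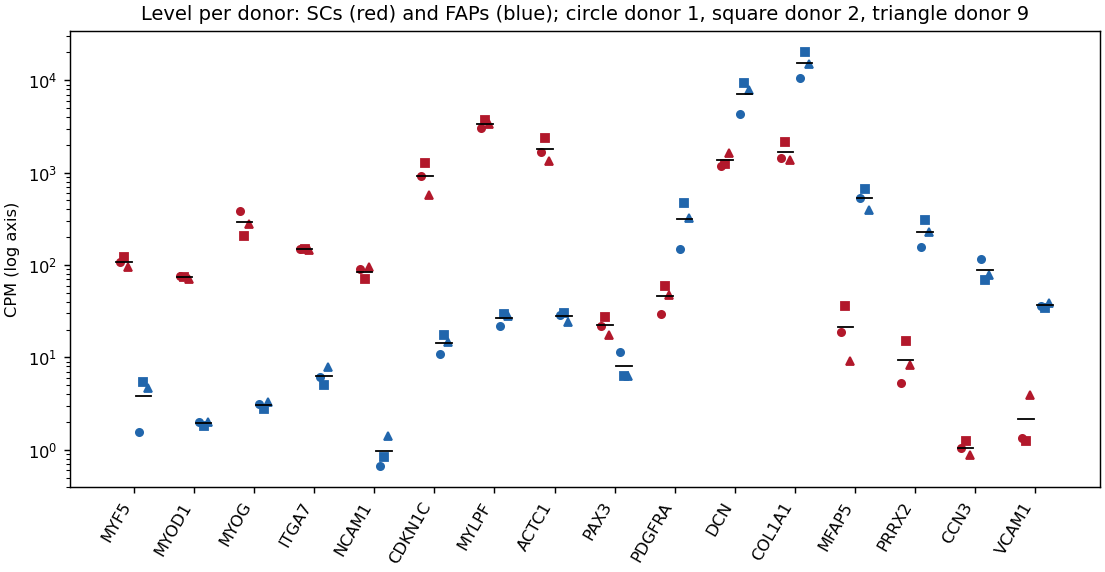
CPM (log axis) of 16 genes in the SCs (red) and FAPs (blue) of donors 1 (circle), 2 (square) and 9 (triangle), with the mean of each type as a bar. The 3 values of a type stand close together for MYOD1 and ITGA7, and PAX3 is the gene with the smallest gap between the types.

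The dystrophin-glycoprotein complex, which ties the cytoskeleton to the matrix, had 5 of 17 genes higher in SCs. SGCA, a sarcoglycan of striated muscle, had 144, 128 and 135 CPM in SCs and 2.21, 1.93 and 1.18 CPM in FAPs, a log2FC of 6.29 (SE 0.16, edgeR adjusted p = 2.2e-11). The widely expressed members DAG1, SGCB (log2FC 1.13, SE 0.12) and UTRN (log2FC 1.04, SE 0.09) differed by less. All 5 calls were kept with SCs that had no MYOG UMI, and 1 member not called with all SCs was then called higher in FAPs.

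FAP identity genes were higher in FAPs in 20 of 25 cases and in SCs in 2, with a median log2FC of -2.17, and in 16 and 1 with SCs that had no MYOG UMI. The 2 higher in SCs were a share near the 8.77% of all genes. PDGFRA, the receptor that defines FAPs, had 29.7, 59.6 and 47.8 CPM in SCs and 148, 472 and 319 CPM in FAPs, a log2FC of -2.63 (SE 0.12, edgeR adjusted p = 5.9e-09). DCN, the proteoglycan decorin, had 1194, 1237 and 1639 CPM in SCs and 4269, 9283 and 7763 CPM in FAPs, a log2FC of -2.32 (SE 0.26, edgeR adjusted p = 0.0084). LUM, the related lumican, had 942, 1219.6 and 1179.9 CPM in SCs and 2439.9, 3743 and 3664 CPM in FAPs, a log2FC of -1.54 (SE 0.08, edgeR adjusted p = 1.3e-08). The FAPs of donor 1 were the lowest for all 3 genes, and still lay above every SC value. The gap was wider for MFAP5, a microfibril protein of FAPs, with 19.0, 36.0 and 9.12 CPM in SCs and 531, 657 and 395 CPM in FAPs, a log2FC of -4.81 (SE 0.17, edgeR adjusted p = 1.1e-08). SCARA5, a scavenger receptor, had 1.94, 2.48 and 0.868 CPM in SCs and 61.8, 199.99 and 75.7 CPM in FAPs, a log2FC of -5.48 (SE 0.21, edgeR adjusted p = 7.5e-10). DPT (log2FC -4.41, SE 0.24), FBLN1 (log2FC -4.17, SE 0.19), CLEC3B (log2FC -3.59, SE 0.19), ITGA5 (log2FC -3.17, SE 0.14) and THY1 (log2FC -2.89, SE 0.45) were higher in FAPs too. The calls of DCN and THY1 were lost without the filter on low counts, that of THY1 also without donor 2, and both with SCs that had no MYOG UMI (edgeR adjusted p = 0.085 and 0.08), at nearly the same log2FC (-2.27 and -2.87).

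The members higher in SCs were GSN and DPP4. GSN, the actin-severing gelsolin, had 1922, 1684 and 2479 CPM in SCs and 941, 1059 and 778 CPM in FAPs, a log2FC of 1.13 (SE 0.21, edgeR adjusted p = 0.016), and lost its call without donor 1 or donor 9 and with SCs that had no MYOG UMI. DPP4, a surface peptidase, had 6.12, 16.1 and 9.55 CPM in SCs and 0.957, 3.66 and 5.46 CPM in FAPs, a log2FC of 1.72 (SE 0.35, edgeR adjusted p = 0.0022), and was not called without the block. CCDC80, SERPING1 and LRRN4CL did not pass, with log2FC of 0.61, 0.00 and -0.09.

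FAP transcripts were seen in SCs of both kinds of culture. DCN stood at 1322, 1292 and 1787 unscaled CPM in SCs of the unsorted cultures and at 992, 1704 and 1229.9 in SCs of the SC cultures of donors 5, 6 and 10, where FAPs were 57.0%, 2.04% and 6.10% of the cells, and the values of the unsorted and the SC cultures overlapped. COL1A1, in contrast, stood at 1609, 2248 and 1513 unscaled CPM in SCs of the unsorted cultures and at 4099, 4242 and 2415, all higher, in those of donors 5, 6 and 10. At least 1 DCN UMI was seen in 98.6%, 92.2% and 99.3% of the SCs of donors 1, 2 and 9. CCN3 had only 10 UMIs in all 550 SCs and 4571 in FAPs. How much of the DCN and COL1A1 in SCs came from free transcripts was not tested.

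Transcription factors of mesenchyme were higher in FAPs in 10 of 29 cases and in SCs in 2, with a median log2FC of -0.68. The share higher in SCs was near the 8.77% of all genes, and that higher in FAPs was above their 9.38%. The homeobox gene PRRX2 had 5.23, 14.9 and 8.25 CPM in SCs and 157, 305 and 226 CPM in FAPs, a log2FC of -4.76 (SE 0.13, edgeR adjusted p = 6.3e-11). TWIST1, a factor of mesenchymal fate that represses myogenic genes, had 4.48, 14.9 and 1.30 CPM in SCs and 80.5, 116 and 99.5 CPM in FAPs, a log2FC of -4.25 (SE 0.36, edgeR adjusted p = 4.4e-04). EBF2 (log2FC -3.97, SE 0.36) and EBF1 (log2FC -3.59, SE 0.42), factors of the adipogenic lineage, were higher in FAPs, with 7 and 5 UMIs in SCs and 636 and 391 in FAPs, and their mean CPM in SCs was 4.61% and 10.0% of that in FAPs. PRRX1, in contrast to PRRX2, was present at 178, 255 and 165 CPM in SCs and at 394, 752 and 601 CPM in FAPs, a log2FC of -1.51 (SE 0.13, edgeR adjusted p = 7.7e-06). The 2 called higher in SCs were GLI2 (log2FC 3.45, SE 0.58), a Hedgehog effector, with 25 UMIs in SCs and 12 in FAPs, and OSR2 (log2FC 1.74, SE 0.17).

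Interstitial collagens and their processing enzymes were higher in FAPs in 15 of 31 cases and in SCs in 2, with a median log2FC of -1.28. The 2 higher in SCs were a share near the 8.77% of all genes. COL1A1, a chain of type I collagen, had 1452, 2152 and 1388 CPM in SCs and 10709.6, 20251 and 14968 CPM in FAPs, a log2FC of -3.18 (SE 0.10, edgeR adjusted p = 8.1e-09). COL1A2, the other chain, had 2898, 4199 and 3278 CPM in SCs and 7554, 15930.3 and 11338 CPM in FAPs, a log2FC of -1.70 (SE 0.10, edgeR adjusted p = 5.8e-07). COL3A1 had 1171, 2788 and 1285 CPM in SCs and 5223, 14259 and 8702 CPM in FAPs, a log2FC of -2.42 (SE 0.11, edgeR adjusted p = 2.8e-07). FAPs of the calf, donor 2, were the highest and those of donor 1 the lowest in all 3 genes. COL6A3 had 4 UMIs in SCs and 723 in FAPs (log2FC -4.95, SE 0.44), and COL16A1 14 and 2152 (log2FC -4.12, SE 0.22). The crosslinking enzyme LOX (log2FC -2.83, SE 0.12) and the prolyl hydroxylase P4HA2 (log2FC -2.60, SE 0.21), which collagen folding requires, were higher in FAPs as well. COL8A2 was one of the 2 genes of this list that were higher in SCs, with 5.08, 7.45 and 3.47 CPM in SCs and 0.147, 0.395 and 0.0492 CPM in FAPs, a log2FC of 4.79 (SE 0.51, edgeR adjusted p = 9.9e-06). COL6A5 was the other call in SCs (log2FC 1.44, SE 0.49), lost without donor 1 or 2 and without the block. COL12A1 did not pass (log2FC 0.77), nor did COL14A1 (log2FC -2.09, edgeR adjusted p = 0.065).

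Of 19 basement membrane genes tested, 4 were higher in SCs and 7 in FAPs. COL15A1, a collagen of the zone beside the basement membrane, had 36.0, 34.8 and 67.7 CPM in SCs and 0.810, 1.63 and 2.16 CPM in FAPs, a log2FC of 4.92 (SE 0.21, edgeR adjusted p = 2.0e-09). LAMA5, a chain of the laminins that satellite cells adhere to, had 17.2, 7.45 and 18.2 CPM in SCs and 1.77, 1.48 and 0.983 CPM in FAPs, a log2FC of 3.42 (SE 0.32, edgeR adjusted p = 2.9e-06). LAMB3 (log2FC 3.18, SE 0.40) and SMOC1 (log2FC 1.42, SE 0.22) were higher in SCs too. The linker NID1 stood at 43.0, 41.0 and 41.7 CPM in SCs and 178, 263 and 249 CPM in FAPs, a log2FC of -2.36 (SE 0.12, edgeR adjusted p = 1.7e-08), and TINAGL1 (log2FC -4.01, SE 0.16), LAMA3 (log2FC -2.30, SE 0.52), NID2 (log2FC -1.48, SE 0.15) and SPARC (log2FC -1.59, SE 0.15, call lost without donor 2) were likewise higher in FAPs. The common laminin chains LAMB1, LAMC1 and LAMA2 did not pass, with log2FC of 0.16, -0.13 and 0.21. COL18A1 (log2FC -2.27, SE 0.41, call lost without donor 1) and COL4A2 (log2FC -1.02, SE 0.23, call lost without donor 1 or 9, without the block, with DESeq2 and with SCs that had no MYOG UMI) were the last on the FAP side.

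Glycoproteins and proteoglycans of the matrix held 20 of 39 genes higher in FAPs and 5 in SCs, with a median log2FC of -1.11. CCN3, a matricellular protein, had 1.05, 1.24 and 0.868 CPM in SCs and 116, 69.7 and 78.0 CPM in FAPs, a log2FC of -6.64 (SE 0.21, edgeR adjusted p = 1.4e-10), the lowest of this list. The proteoglycans BGN (log2FC -3.99, SE 0.20) and ASPN (log2FC -4.51, SE 0.15), the thrombospondin THBS4 (log2FC -4.64, SE 0.37) and tenascin TNC (log2FC -3.14, SE 0.13) were higher in FAPs as well. TNC was uneven between animals, with 735, 148 and 711 CPM in the FAPs of donors 1, 2 and 9 and 74.1, 27.3 and 79.0 CPM in their SCs, and the calf was lowest in both types. Fibronectin, FN1, which also coated the dishes as protein, had 442, 559 and 532 CPM in SCs and 1398, 1961 and 1718 CPM in FAPs, a log2FC of -1.72 (SE 0.08, edgeR adjusted p = 4.5e-09). SPARCL1, a relative of SPARC, was the opposite case, with 57.8, 99.4 and 156 CPM in SCs and 0.810, 0.494 and 1.08 CPM in FAPs, a log2FC of 7.05 (SE 0.20, edgeR adjusted p = 7.1e-11). PODN (log2FC 3.50, SE 0.43), MFAP4 (log2FC 2.61, SE 0.33), SDC1 (log2FC 1.09, SE 0.12) and TGFBI (log2FC 1.79, SE 0.41, call lost without donor 1) were the others higher in SCs. SPARC and SPARCL1 thus had their higher level in opposite types, as had MFAP4 and MFAP5.

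Of 25 matrix proteases and inhibitors 4 were higher in SCs and 6 in FAPs, with a median log2FC of -0.64. TIMP3, an inhibitor of metalloproteinases that binds to matrix, had 14.2, 3.73 and 3.91 CPM in SCs and 171, 84.7 and 186 CPM in FAPs, a log2FC of -4.09 (SE 0.32, edgeR adjusted p = 4.0e-04), and its call was lost without donor 2. PLAT, a plasminogen activator, was higher in SCs, with 55.8, 114 and 76.8 CPM in SCs and 15.2, 23.9 and 27.4 CPM in FAPs, a log2FC of 1.84 (SE 0.14, edgeR adjusted p = 5.5e-07). The serine protease HTRA1 was higher in SCs at 448, 520.4 and 608 against 122, 188 and 175 CPM (log2FC 1.72, SE 0.10), and HTRA3 (log2FC 1.98, SE 0.36) and the membrane-bound MMP15 (log2FC 3.45, SE 0.46) were higher there too. MMP2 and MMP14 stood at log2FC of -0.47 and -0.48 and were not called.

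Of 14 integrin subunits 4 were higher in SCs and 6 in FAPs. Beside ITGA7, the SC side held ITGA3 (log2FC 1.78, SE 0.13), a laminin receptor, ITGA10 (log2FC 2.04, SE 0.30) and ITGB8 (log2FC 1.42, SE 0.23). ITGA5, the fibronectin receptor, had 25.5, 24.8 and 20.8 CPM in SCs and 269, 137 and 180.2 CPM in FAPs, a log2FC of -3.17 (SE 0.14, edgeR adjusted p = 4.1e-09). ITGA8 (log2FC -4.20, SE 0.35), ITGB3 (log2FC -2.92, SE 0.24), ITGB4 (log2FC -2.69, SE 0.47), ITGA9 (log2FC -2.29, SE 0.45) and ITGA1 (log2FC -1.51, SE 0.12) were higher in FAPs. All 10 calls were kept with SCs that had no MYOG UMI.

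Of 44 receptors for growth factors and hormones, 6 were higher in SCs and 12 in FAPs. MET, the receptor of hepatocyte growth factor, which activates satellite cells, had 26.3, 16.1 and 16.9 CPM in SCs and 1.10, 0.988 and 1.72 CPM in FAPs, a log2FC of 3.92 (SE 0.28, edgeR adjusted p = 2.3e-07). ACVR2B, a receptor of activins and myostatin, had 9.71, 17.4 and 10.4 CPM in SCs and 0.589, 0.840 and 0.738 CPM in FAPs, a log2FC of 4.05 (SE 0.32, edgeR adjusted p = 7.1e-07). FGFR1 was present in both, at 64.2, 107 and 78.6 CPM in SCs and 34.5, 34.3 and 28.5 CPM in FAPs, a log2FC of 1.29 (SE 0.14, edgeR adjusted p = 2.4e-05). FGFR4 and FGFR1 were thus both higher in SCs, FGFR4 with little left in FAPs. The neuregulin receptor ERBB3 had a log2FC of 5.92 (SE 0.44) with all SCs and of 0.57 without those that had a MYOG UMI (edgeR adjusted p = 0.79). The collagen receptor DDR1 (log2FC 2.63, SE 0.20) was the sixth.

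The neurotrophin receptor NTRK2 led the FAP side among receptors seen in both types, with 0.299, 1.24 and 0.434 CPM in SCs and 16.05, 22.7 and 34.1 CPM in FAPs, a log2FC of -5.63 (SE 0.34, edgeR adjusted p = 4.8e-08). PDGFRB, the second receptor for platelet-derived growth factors, had 0.896, 0 and 2.17 CPM in SCs and 9.94, 13.2 and 14.2 CPM in FAPs, a log2FC of -3.31 (SE 0.34, edgeR adjusted p = 7.7e-06). OSMR, the oncostatin M receptor, was at log2FC -3.24 (SE 0.24). FLT1, a VEGF receptor, had no UMI in SCs and 372 in FAPs, at least 22.4-fold higher in CPM against a floor of 3 UMIs over the 3 donors. PTH1R, the parathyroid hormone receptor, had 1 UMI in SCs and 235 in FAPs, a ratio of 42.5-fold (95% exact interval 7.56 to 1688), and RARB, a retinoic acid receptor, 1 and 126, a ratio of 22.8-fold (95% exact interval 4.02 to 908). EGFR and IGF1R did not pass, with log2FC of -0.01 and 0.65.

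Of the platelet-derived growth factor ligands, PDGFA and PDGFB were higher in SCs. PDGFA, a ligand of PDGFRA, had 63.3, 38.5 and 46.5 CPM in SCs and 2.65, 0.988 and 1.38 CPM in FAPs, a log2FC of 4.90 (SE 0.19, edgeR adjusted p = 9.4e-10), and PDGFB had 26 UMIs in SCs and 4 in FAPs (log2FC 4.51, SE 0.74). The ligand PDGFD (log2FC -1.54, SE 0.57, edgeR adjusted p = 0.046, call lost without donor 1 or donor 9, without the block, with DESeq2 and with SCs that had no MYOG UMI) and the receptors PDGFRA and PDGFRB were higher in FAPs, and PDGFC stood at -0.42 and was not called. The PDGFA call was kept with SCs that had no MYOG UMI, at a log2FC of 4.92. Among all 41 growth factors and inhibitors tested, 9 were higher in SCs and 9 in FAPs. AREG, an epidermal growth factor ligand, was higher in SCs (log2FC 3.27, SE 0.41). IGFBP7, a secreted binding protein, had 13.6, 14.9 and 6.08 CPM in SCs and 139, 237 and 149 CPM in FAPs, a log2FC of -3.75 (SE 0.19, edgeR adjusted p = 3.2e-07), and FSTL1 159, 138 and 152 and 748, 676 and 698 CPM (log2FC -2.23, SE 0.09). FST, the activin and myostatin antagonist follistatin, had 226, 160.2 and 97.7 CPM in SCs and 409, 282 and 301 CPM in FAPs (log2FC -1.10, SE 0.16), with the call lost without donor 2 or donor 9 and with SCs that had no MYOG UMI.

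In the Notch pathway, which holds satellite cells in quiescence and delays differentiation, 3 of 14 genes were higher in SCs and 2 in FAPs. The ligand DLL1 had 11.5, 6.21 and 6.51 CPM in SCs and 0.883, 0.642 and 1.52 CPM in FAPs, a log2FC of 2.97 (SE 0.39, edgeR adjusted p = 5.0e-05). The other ligand JAG1 had 4.18, 7.45 and 4.34 CPM in SCs and 19.0, 14.6 and 16.6 CPM in FAPs, a log2FC of -1.94 (SE 0.24, edgeR adjusted p = 3.0e-05). The modifier LFNG (log2FC 2.07, SE 0.19) and DTX4 (log2FC 1.49, SE 0.31) were higher in SCs. NOTCH1 and NOTCH2 had log2FC of 0.97 and 0.91, just short of the limit, and the target HES1 stood at 0.02. With SCs that had no MYOG UMI, NOTCH1 went to 0.14 (edgeR adjusted p = 0.82). NOTCH2 went to 1.15 there (edgeR adjusted p = 1.7e-05) and passed, and DLL1 kept its call at 1.70 (edgeR adjusted p = 0.019).

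In the Wnt pathway 4 of 21 genes were higher in SCs and 9 in FAPs. The receptor FZD2 had 48.4, 36.0 and 44.7 CPM in SCs and 3.75, 3.66 and 5.06 CPM in FAPs, a log2FC of 3.38 (SE 0.17, edgeR adjusted p = 1.1e-08). The co-receptor LRP5 (log2FC 2.54, SE 0.29), the ligand WNT5B (log2FC 1.79, SE 0.21) and FZD6 (log2FC 1.10, SE 0.25, call lost without donor 9) were on the same side. The secreted modulator SFRP2 had 1 UMI in SCs and 218 in FAPs, a CPM ratio of 39.5-fold (95% exact interval 7.01 to 1566), and RSPO1, an agonist of the pathway, 1 and 99, a ratio of 17.9-fold (95% exact interval 3.14 to 715). SFRP1 did not pass although its values did not overlap, with 176, 186 and 147 CPM in SCs and 9.42, 61.8 and 39.1 CPM in FAPs (log2FC 2.52, edgeR adjusted p = 0.14).

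Of 29 complement and chemokine genes 14 were higher in FAPs and 2 in SCs, with a median log2FC of -1.12. The share higher in SCs was near the 8.77% of all genes. CXCL12, the ligand of CXCR4, had 11.05, 24.8 and 10.9 CPM in SCs and 131, 223 and 91.7 CPM in FAPs, a log2FC of -3.35 (SE 0.13, edgeR adjusted p = 1.0e-09). CXCL12 was thus higher in the other type than its receptor CXCR4. CCL5 (log2FC -3.31, SE 0.14) and the cytokine IL6 (log2FC -3.72, SE 0.26) were higher in FAPs, and so were IL33 with 1 UMI in SCs and 298 in FAPs (ratio 54.0-fold, 95% exact interval 9.61 to 2138) and the prostaglandin synthase PTGS2 with 2 and 366 (ratio 33.1-fold, 95% exact interval 9.11 to 275). C3, the central complement component, had a log2FC of -0.50 and was not called. CXCL10, an interferon-induced chemokine, was one of the 2 higher in SCs. It stood at 123, 124 and 134 CPM in SCs and 1.40, 0.692 and 1.57 CPM in FAPs, a log2FC of 6.70 (SE 0.17, edgeR adjusted p = 4.1e-11), and at 6.72 with SCs that had no MYOG UMI.

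Adipogenic and lipid handling genes were higher in FAPs in 7 of 26 cases and in SCs in 3, the latter a share near the 8.77% of all genes. PPARG, the master regulator of fat cell differentiation, had 2 UMIs in SCs and 139 in FAPs, a CPM ratio of 12.6-fold (95% exact interval 3.42 to 105). The retinol carrier RBP4 had 11.5, 34.8 and 12.6 CPM in SCs and 76.6, 109 and 94.8 CPM in FAPs, a log2FC of -2.54 (SE 0.19, edgeR adjusted p = 8.9e-06). FABP4, a fatty acid binding protein known from adipocytes, was on the other side, with 241, 70.8 and 303 CPM in SCs and 28.9, 12.9 and 46.4 CPM in FAPs, a log2FC of 2.79 (SE 0.12, edgeR adjusted p = 2.1e-09). FABP4 was lowest in the calf in both types. APOE (log2FC 1.37, SE 0.16) was higher in SCs as well, and APOD (log2FC 2.56, SE 0.48) was the third, with a call that was lost without donor 1 or donor 9, without the block and with SCs that had no MYOG UMI.

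Smooth muscle contractile genes had 6 of 18 members higher in FAPs and 2 in SCs, the latter a share near the 8.77% of all genes. ACTG2 had 14.6, 1.24 and 11.3 CPM in SCs and 181, 74.0 and 131 CPM in FAPs, a log2FC of -3.68 (SE 0.16, edgeR adjusted p = 2.9e-09). MYLK (log2FC -3.59, SE 0.18), CNN1 (log2FC -3.38, SE 0.23) and TAGLN (log2FC -2.34, SE 0.15) were on the same side. ACTA2, the smooth muscle actin of activated fibroblasts, was not, with 330.5, 291 and 226 CPM in SCs and 563, 159 and 422 CPM in FAPs (log2FC -0.33, edgeR adjusted p = 0.69). The members higher in SCs were MYH11 (log2FC 5.18, SE 0.61, 29 UMIs in SCs and 8 in FAPs) and SYNM (log2FC 3.09, SE 0.38), an intermediate filament protein that striated muscle also uses.

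Of the proliferation genes, none of 30 replication genes and none of 32 mitosis genes was called by edgeR or by DESeq2, 6 and 2 of them had an unadjusted edgeR p below 0.05, and the median log2FC were -0.01 and -0.02. The levels differed between donors. The mitosis genes summed to 756, 339 and 122 CPM in the SCs of donors 1, 2 and 9 and to 520, 345 and 346 CPM in their FAPs, so that SCs lay above FAPs in donor 1 and below them in donor 9. MKI67, a marker of dividing cells, had 58.1, 14.9 and 0.868 CPM in SCs and 26.6, 17.5 and 16.9 CPM in FAPs, a log2FC of 0.19 (SE 0.96, edgeR adjusted p = 0.91). TOP2A, the topoisomerase of dividing cells, had 61.5, 7.45 and 2.60 CPM in SCs and 24.4, 16.8 and 15.5 CPM in FAPs (log2FC 0.31, edgeR adjusted p = 0.85), and was called higher in FAPs without donor 1. The replication genes summed to 676, 621 and 383 CPM in SCs and to 581, 494 and 457 CPM in FAPs. Among 16 cyclin D and cell cycle inhibitor genes 5 were higher in SCs. Beside CDKN1C these were RB1 (log2FC 1.80, SE 0.17), CDKN2B (log2FC 1.66, SE 0.44), CCND3 (log2FC 1.12, SE 0.10) and CCND2 (log2FC 1.08, SE 0.27, call lost without donor 2 or donor 9). CCND1, with 497, 364 and 474 CPM in SCs and 547, 374 and 399.6 CPM in FAPs, did not pass the test (log2FC 0.02, SE 0.09).

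HOX genes, which record position along the body axes, were higher in SCs in 6 of 16 cases and in FAPs in 3. HOXD9 had 4.93, 4.97 and 3.47 CPM in SCs and 0.515, 0.395 and 0.197 CPM in FAPs, a log2FC of 3.56 (SE 0.46, edgeR adjusted p = 4.6e-05), and HOXA5 (log2FC 1.78, SE 0.21) and HOXA10 (log2FC 1.68, SE 0.29) were higher in SCs too. The 6 members higher in SCs all belong to the A and D clusters and the 3 higher in FAPs, HOXB7 (log2FC -2.66, SE 0.48), HOXC5 (log2FC -2.13, SE 0.43, call lost without donor 1) and HOXC4 (log2FC -1.89, SE 0.23), to the B and C clusters. Of the 7 not called, HOXA9 (log2FC 0.66), HOXD8 (0.87) and HOXC9 (0.31) had positive values and HOXA11 (-0.17), HOXC6 (-0.50), HOXC8 (-0.50) and HOXC10 (-0.60) negative ones, so that HOXA11 and HOXC9 lay on the other side from the called members of their clusters.

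Of the genes of energy metabolism, none of 13 mitochondrially encoded genes was called by edgeR or DESeq2, 4 of them at an unadjusted edgeR p below 0.05. Of 22 glycolysis genes 2 were higher in SCs, both of them muscle isoforms, and 3 in FAPs, shares near the 8.77% and 9.38% of all genes, with 17 at an unadjusted edgeR p below 0.05 and a median log2FC of -0.42. The values did not overlap, with FAPs above SCs, at 45.5% of them, against 24.5% of all genes. ENO3 had 939.8, 829.6 and 748 CPM in SCs and 36.7, 32.9 and 28.4 CPM in FAPs, a log2FC of 4.69 (SE 0.09, edgeR adjusted p = 2.6e-12), and PGAM2 a log2FC of 4.20 (SE 0.41) that went to 1.10 (edgeR adjusted p = 0.33) without the SCs that had a MYOG UMI. ALDOC, a brain-type aldolase, was one of the 3 higher in FAPs (log2FC -3.47, SE 0.17). Of 24 creatine, glutathione and redox genes 4 were higher in SCs and 5 in FAPs, among them GATM (log2FC 4.26, SE 0.15), which makes the creatine precursor, and the metal-binding MT2A, with 539.7, 134 and 206 CPM in SCs and 4001, 2108 and 2091 CPM in FAPs, a log2FC of -3.34 (SE 0.23, edgeR adjusted p = 4.3e-04).

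**Figure D4:**
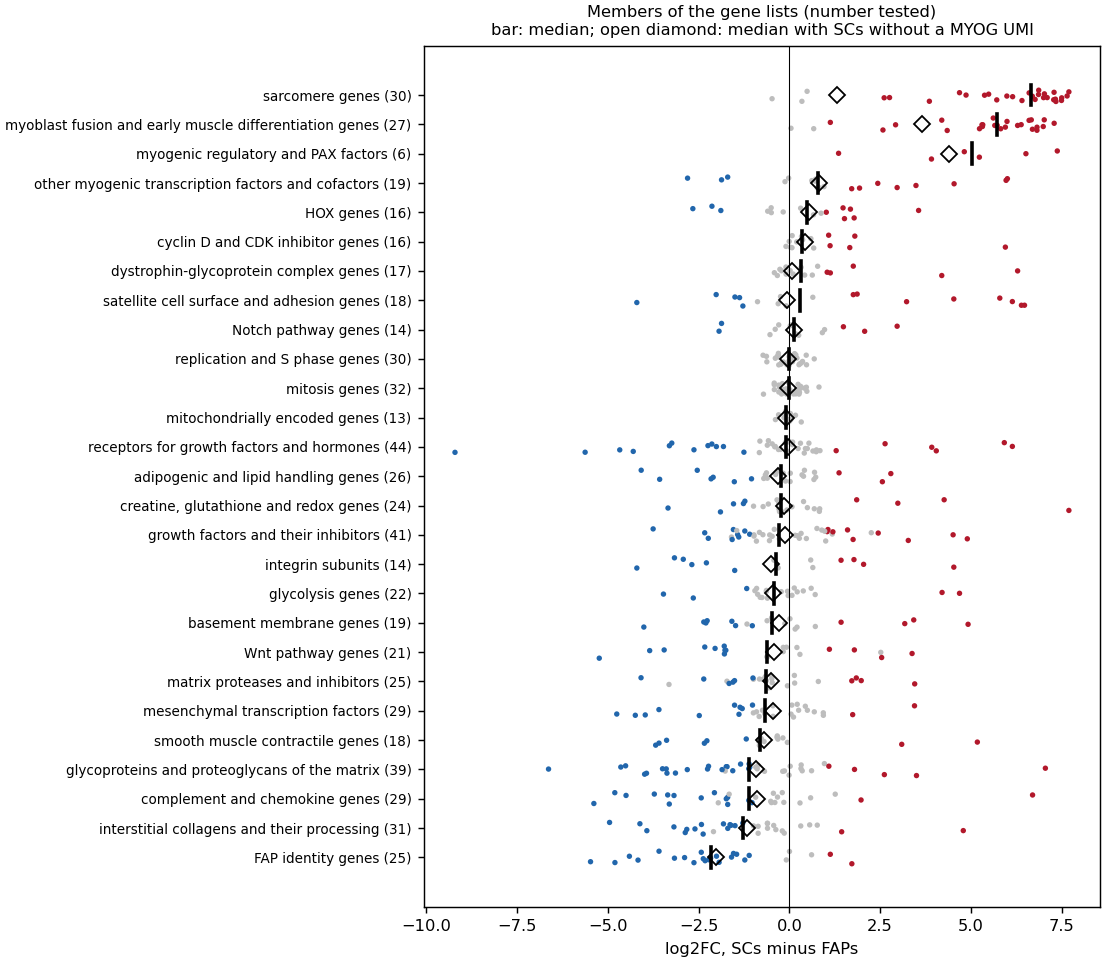
Log2FC of SCs minus FAPs (x axis) for the tested members of the 27 gene lists (y axis, number tested in brackets), each point 1 gene, red where called higher in SCs, blue where called higher in FAPs and grey otherwise, with a bar at each list's median and an open diamond at the median computed with the SCs that had no MYOG UMI. The sarcomere median moves from 6.65 to 1.30 between bar and diamond, while that of the FAP identity genes stays at -2.17 and -2.02.

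Most genes with the largest fitted log2FC had few UMIs or none in one type. C2H2orf80 had 70 UMIs in SCs and none in FAPs, at least 129-fold higher in CPM against the floor of 3 UMIs, SLN, the regulator sarcolipin of the muscle calcium pump, 56 and none (at least 103-fold), CD93, a surface protein known from endothelium, 34 and none (at least 62.6-fold) and IRX1 19 and none (at least 34.98-fold). Such bounds take the UMIs of the higher type as exact. The SC levels of donors 1, 2 and 9 were uneven, at 0.896, 12.4 and 1.30 CPM for IRX1 and 7.32, 19.9 and 2.17 CPM for C2H2orf80. ENSBTAG00000046838 (at least 93.9-fold), DUSP26 (at least 31.3-fold), ENSBTAG00000053974 (at least 42.3-fold) and ENSBTAG00000052033 (at least 38.7-fold) had none in FAPs either. IGSF23 had 76 UMIs in SCs and 1 in FAPs, a ratio of 419.8-fold (95% exact interval 73.1 to 16796), SMPX, a small protein of muscle, 81 and 1 (447-fold, 95% exact interval 78.1 to 17887), and CAVIN4, a caveolar protein of muscle, 195 and 3 (359-fold, 95% exact interval 121 to 1756). ENSBTAG00000053626, whose gene carries no symbol in the files, stood at 112, 88.2 and 81.2 CPM in SCs and 0.0736, 0.0988 and 0.541 CPM in FAPs, a log2FC of 8.40 (SE 0.33, edgeR adjusted p = 4.8e-07). Without the SCs that had a MYOG UMI, C2H2orf80, SLN and SMPX lost their calls. CAVIN4 kept its call there, at a log2FC that went from 8.20 to 3.68 (SE 1.27, edgeR adjusted p = 0.039). On the FAP side PI3, the protease inhibitor elafin, had 1.19, 0 and 0.868 CPM in SCs and 101.08, 169.5 and 155 CPM in FAPs, a log2FC of -6.87 (SE 0.22, edgeR adjusted p = 2.0e-10). Beside FLT1, the genes with no UMI in SCs were ENSBTAG00000020813 (at least 17.3-fold), the thrombin receptor F2R (at least 16.8-fold), CLIC2 (at least 15.8-fold), ENSBTAG00000038625 (at least 12.3-fold), ENSBTAG00000039524 (at least 11.5-fold), TLR5 (at least 10.3-fold), KCNT2 (at least 10.2-fold), KCNK1 (at least 9.90-fold), ENSBTAG00000049620 (at least 6.16-fold), PTH2R (at least 3.68-fold) and CCDC151 (at least 4.95-fold, call lost without donor 1). The SC total was the smaller one, so the bounds on this side are lower at the same number of UMIs.

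The called genes of highest level in SCs that no list above holds were GNG11, TUBA1A, ECHDC1, CDV3, NEXN and NES. GNG11, a G protein subunit, had 1264, 1544 and 1718 CPM in SCs and 229, 307 and 305 CPM in FAPs, a log2FC of 2.43 (SE 0.08, edgeR adjusted p = 2.8e-10). ECHDC1 had 818, 963 and 732 CPM in SCs and 133, 97.7 and 124 CPM in FAPs, a log2FC of 2.82 (SE 0.15, edgeR adjusted p = 1.9e-06), and the actin-binding NEXN 725, 684 and 647 and 296, 269 and 279.5 CPM (log2FC 1.28, SE 0.08). These 3 were kept with SCs that had no MYOG UMI. The tubulin TUBA1A went from a log2FC of 1.05 to -0.30 there, CDV3 from 1.39 to 0.00, and nestin, NES, from 2.26 to 0.58. In FAPs the highest outside the lists were FTH1, the ferritin heavy chain, TMSB10, MFGE8, TSPO and M-SAA3.2. MFGE8, a secreted bridge to dying cells, had 513, 456 and 369 CPM in SCs and 4379, 3219 and 3771 CPM in FAPs, a log2FC of -3.10 (SE 0.10, edgeR adjusted p = 3.5e-10), and TMSB10, a thymosin, 3415, 4095 and 3061 and 9458, 8110.4 and 9555 CPM (log2FC -1.37, SE 0.12). M-SAA3.2, a serum amyloid gene, was uneven between animals, with 24.3, 134 and 288 CPM in SCs and 532, 4694 and 2387 CPM in FAPs. Its log2FC was -4.12 (SE 0.63, edgeR adjusted p = 0.04), and the call was lost without donor 1 or donor 2, without the block and with SCs that had no MYOG UMI. FTH1 (log2FC -1.01, SE 0.10) lay at the limit and was not called without donor 2 or donor 9. Nearest to the limit inside were GKAP1 and ARMC2 (log2FC 1.00 and 1.00) and outside TSHZ3 and H4C3 (log2FC 1.00 and 1.00).

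The same comparison could be made in the same 3 animals at passage 2 (P2), with 2934 SCs and FAPs. The change of the SC-FAP difference between P2 and P5 was called at 64 of 11584 genes (0.552%), with a higher log2FC (SC minus FAP) at P5 in 25 (0.216%) and a lower one in 39 (0.337%), which includes genes whose negative log2FC grew in size. The number rested on the donors. Without donor 1 it was 8, without donor 2 it was 334, without donor 9 it was 21, and without the replicate block it was 6. The calls that follow are given with that limit. Of the muscle lists, 1 of 33 sarcomere genes, 1 of 29 fusion and differentiation genes and 1 of 6 myogenic and PAX factors were called with a higher log2FC at P5, and 1 of these 6 with a lower one. DESeq2 called 6, 3 and 2 members of these lists in either direction. The median changes of the 3 lists were 1.30, 0.90 and 0.25, against -0.02 over all genes. An unadjusted edgeR p below 0.05 was reached by 11, 11 and 2 members. Of 32 mitosis genes 0 were called, at a median change of 0.88. MYOG went from a log2FC of 5.35 at P2 to 6.50 at P5, a difference of 1.15 (SE 0.21, edgeR adjusted p = 0.025), with 143, 99.1 and 109.6 CPM in the P2 SCs and 391, 208 and 279 CPM in the P5 SCs. TNNT3, a fast troponin, had 8.27, 16.3 and 2.05 CPM in SCs at P2 and 139.7, 239.5 and 83.6 CPM at P5, a difference of 2.98 (SE 0.45, edgeR adjusted p = 0.011). ATP2A1, the fast muscle calcium pump, changed by 4.13 (SE 0.86, edgeR adjusted p = 0.045) and STAC3, a part of excitation-contraction coupling, by 2.46 (SE 0.34, edgeR adjusted p = 0.0069). HHATL had 1 UMI in all P2 SCs, and its fitted difference of 5.69 (SE 1.18, edgeR adjusted p = 0.044) rests on that count. CAPN6 changed by 3.68 (SE 0.62, edgeR adjusted p = 0.017) and DPP4 by 3.04 (SE 0.54, edgeR adjusted p = 0.023), the latter from a log2FC of -1.31 to 1.73, which turned its direction from FAPs to SCs. FZD2 changed by 1.89 (SE 0.24, edgeR adjusted p = 0.0051). At P5, 4 of these genes rested on the SCs with a MYOG UMI. Without those SCs the P5 log2FC of TNNT3 went from 7.29 to -0.24 (edgeR adjusted p = 0.85), that of ATP2A1 from 5.73 to -0.31 (edgeR adjusted p = 0.91), that of CAPN6 from 6.68 to -3.25 (edgeR adjusted p = 0.46) and that of HHATL from 3.56 to -4.31 (edgeR adjusted p = 0.27), and all 4 calls were lost. STAC3 and FZD2 kept their P5 calls, but their log2FC went from 5.24 to 3.05 and from 3.38 to 2.06, against 2.77 and 1.48 at P2 with all SCs. MYOG was lower there by construction. The change between passages was not computed without the SCs that had a MYOG UMI.

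PAX3 was among the differences that became smaller. Its level in FAPs was 0.307, 0.241 and 0.159 CPM at P2 and 11.7, 6.45 and 6.37 CPM at P5, against 4.92, 11.9 and 0.879 and 22.4, 27.6 and 17.6 CPM in SCs, and the SC-FAP log2FC went from 4.50 to 1.39, a difference of -3.12 (SE 0.56, edgeR adjusted p = 0.028). In the same P5 library the FAPs of the sorted FAP cultures held 0.551, 1.53 and 0.595 unscaled CPM of PAX3, and the cells labelled FAPs in SC cultures 15.8, 23.7 and 6.88, against 10.9, 5.70 and 5.77 in the FAPs of the unsorted cultures and 18.9 to 28.5 in their SCs. GREM1, an antagonist of bone morphogenetic proteins, went from a log2FC of 4.93 to -0.86, a difference of -5.79 (SE 0.61, edgeR adjusted p = 0.0063), with 21.7, 4.75 and 19.6 CPM in SCs and 0.384, 0.448 and 0.558 CPM in FAPs at P2 and 6.83, 0 and 5.72 CPM in SCs and 11.4, 8.51 and 7.87 CPM in FAPs at P5, where it was not called by itself. BDNF, a ligand of NTRK2, turned from 1.95 to -1.42 (-3.37, SE 0.43, edgeR adjusted p = 0.0069), and RAMP3, a receptor accessory protein, from 1.03 to -1.83 (-2.86, SE 0.27, edgeR adjusted p = 0.0025). NGEF changed by -4.00 (SE 0.80, edgeR adjusted p = 0.038), FGFR1 by -1.59 (SE 0.18, edgeR adjusted p = 0.0048), and the negative differences of MFAP5 and MFGE8 became larger in size, by -1.61 (SE 0.24, edgeR adjusted p = 0.011) and -1.13 (SE 0.14, edgeR adjusted p = 0.0051). The tests are of the difference between types within a library. P2 and P5 were 1 library each, so passage and library cannot be told apart, for levels or for this difference.

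**Figure D5:**
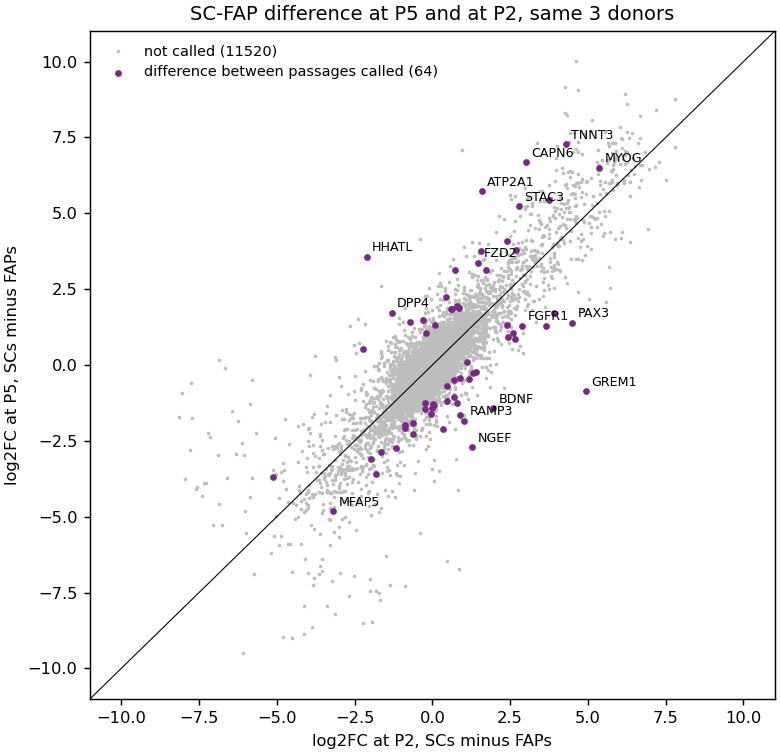
Log2FC of SCs minus FAPs at P5 (y axis) against that at P2 (x axis) for 11584 genes in the same 3 donors, each point 1 gene, purple where the change between passages was called (64 genes), with the line of equal values. PAX3 and GREM1 lie below the line and TNNT3 and ATP2A1 above it.

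Within the P5 library the difference was also set against that in the sorted SC cultures of donors 5, 6 and 10, which held 3710 SCs and FAPs. The SC-FAP log2FC differed between the cultures at 959 of 11993 genes (8.00%), with the unsorted value above the sorted one at 381 (3.18%) and below it at 578 (4.82%). With DESeq2 757 genes were called, 386 above and 371 below. Donors, coating, sex and age differ between the cultures and cannot be told apart, and the FAPs of donor 6 were 31 cells. Of the matrix lists, 16 of 31 interstitial collagen genes were called below the sorted value and none above it, 11 of 40 glycoproteins and proteoglycans below and 1 above, 7 of 21 basement membrane genes below and 2 above, and 4 of 26 proteases and inhibitors below. In the joint fit of both cultures COL1A1 stood at 1534, 2250.2 and 1456 CPM in SCs and 11585, 21929 and 16104 CPM in FAPs of the unsorted cultures, and at 3995, 4001 and 2322 CPM in SCs and 3386, 3510.1 and 4344 CPM in the cells labelled FAPs of the SC cultures, a difference of -3.07 (SE 0.40, edgeR adjusted p = 0.013). The cells labelled FAPs in SC cultures had less COL1A1 than their SCs in donors 5 and 6 and more in donor 10. COL1A2 (difference -2.99, SE 0.20, edgeR adjusted p = 1.0e-04) and SPARC (-2.90, SE 0.27, edgeR adjusted p = 0.0017) turned from higher in FAPs to higher in SCs. Of 26 FAP identity genes 9 were called with a lower log2FC in the unsorted cultures. Of 34 sarcomere genes 8 were called with a higher log2FC there, and the median difference was 0.86 over the 34 and -1.06 over the collagen genes, against -0.06 over all genes. CKM, for one, stood at 90.9, 136 and 66.5 CPM in unsorted SCs and 27.4, 1.22 and 7.93 CPM in sorted SCs (difference 2.09, SE 0.65, edgeR adjusted p = 0.04). Its P5 log2FC in the unsorted cultures went from 7.70 to -0.04 without the SCs that had a MYOG UMI. The difference between the cultures was not computed without those SCs. None of the 6 myogenic and PAX factors was called by edgeR or DESeq2 for this SC-FAP difference, and none had an unadjusted edgeR p below 0.05. That does not show equal levels in SCs. In SCs of donors 1, 2 and 9 MYOG stood at 427, 215 and 299.6 unscaled CPM. In SCs of donors 5, 6 and 10 it stood at 179.5, 72.4 and 132. PAX3 went the other way, with 24.5, 28.5 and 18.9 in unsorted and 43.1, 46.6 and 38.5 in sorted SCs. Of 32 mitosis genes 3 were called with a higher log2FC in the unsorted cultures, at a median difference of 1.10. KCNN4, a calcium-activated potassium channel, had 18.5, 9.09 and 10.9 CPM in unsorted and 5.25, 5.61 and 4.74 CPM in sorted SCs and 0.876, 0.749 and 0.582 and 21.6, 15.8 and 20.96 CPM in FAPs, a difference of 6.09 (SE 0.35, edgeR adjusted p = 4.2e-08). TSPAN18, a tetraspanin, changed by 6.34 (SE 0.69, edgeR adjusted p = 1.6e-05).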

How the data were processed

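Single cells of pooled passage libraries were sequenced by 10x droplet RNA-seq. Reads had been counted by the authors with Cell Ranger 6.0.1 against ARS-UCD1.2 (per the submitters' processing notes), and the deposited matrix of the P5 library holds raw UMI counts of 21880 genes and was taken to hold both of its 2 sequencing runs, which the labels do not say. Genes carry a symbol for 16828 of them, and 68 symbols stand for several genes and were kept apart by identifier. Donors (demuxlet) and cell types (predicted labels) were taken from the deposited cell table, whose percent of mitochondrial UMIs was also used as the authors gave it. No coordinates or sequences are given, since the gene table at hand is of another assembly. Of the cell tables, 18 columns were not used, and the deposited normalized values of all libraries together were not used either.

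Counts were summed per donor and type (at least 10 cells) and tested with edgeR 4.0.16 in R 4.3.3 (filterByExpr, TMM, robust quasi-likelihood F test, 2-sided, Benjamini-Hochberg over all genes tested, donor as block). Calls needed a log2FC beyond 1 in size with an adjusted p under 0.05. SE is the log2FC divided by the root of F. The interaction tests used 12 pseudobulks each, with donor by passage or donor as block. Both types of a donor came from 1 animal and 1 culture, and their deviations from the type means correlated at r = 0.37, 0.21 and 0.21 in donors 1, 2 and 9 over 11067 genes, so the samples are paired. The p-values measure the spread over these 3 cultures, and exact binomial intervals cover counting error only. On simulated counts of 10959 genes the test of SCs against FAPs recovered 86.2%, 93.3% and 94.4% of genes changed by 1.5, 2 and 3 on the log2 scale, with 0 false calls. The simulation gave all genes 1 common spread (coefficient of variation 0.0965) and no difference between donors. Its rates therefore do not hold for genes that varied more between the donors.

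The genes named are members of 27 gene lists, the 12 called genes per direction with the largest log2FC and the 12 with the highest level (same sign in 3 of 3 donors), the 5 largest per direction of each interaction test, and 2 genes on either side of the log2FC limit. Marker genes of other cell types and the other genes with no UMI in one type were named after their values had been seen. Some list members are counted but not reported singly here. Members and lists were chosen with earlier results of these data known. Alternatives were no block, DESeq2 1.42.0, RLE factors, no filter, thinned pseudobulks, cells of at least 10000 UMIs, the spread estimated with P2, each donor left out, and, chosen after seeing the data, SCs without a MYOG UMI. Cell tables were read with Python 3.11.15, pandas 2.3.3, numpy 2.4.6 and scipy 1.17.1, and figures drawn with matplotlib 3.10.9.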

Additional observations from a re-analysis of the deposited data

Results flagged for a closer look

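The SC-FAP difference changed between passage 2 and passage 5 at 64 genes, each picked out because the test of the difference itself (edgeR interaction term, adjusted p below 0.05 and an absolute difference above 1) passed. The differences of log2FC, P5 minus P2, were 5.69 for HHATL, 4.13 for ATP2A1, 3.68 for CAPN6, 3.04 for DPP4 and 2.98 for TNNT3, and -5.79 for GREM1, -4.00 for NGEF, -3.37 for BDNF, -3.12 for PAX3 and -2.86 for RAMP3. Of these 10 genes 1 was called without donor 1, 3 without donor 9, all 10 without donor 2 and 1 without the replicate block. The P5 levels of HHATL were 2.73, 3.76 and 2.20 CPM in SCs, and those of ATP2A1 15.9, 8.78 and 16.3 CPM. NGEF had 1.06, 0 and 0 CPM in SCs and 6.09, 0.806 and 1.66 CPM in FAPs at P5, so donor 1 held most of its FAP counts.

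The same test between unsorted and sorted SC cultures within the P5 library picked out 959 genes. The differences of log2FC, unsorted minus sorted, were 7.53 for PKHD1, 6.99 for ESRRG, 6.34 for TSPAN18, 6.09 for KCNN4 and 5.75 for ENSBTAG00000005251, and -11.84 for DHRS3, -10.15 for WASF1, -8.44 for SUN3, -8.29 for WT1 and -8.19 for DTNA. Among these 10, TSPAN18 and KCNN4 had UMIs in all 12 pseudobulks. The FAPs of the unsorted cultures had no UMI of PKHD1 or ESRRG, the SCs of the sorted cultures none of ENSBTAG00000005251, the SCs of the unsorted cultures none of DHRS3 or WASF1, and the cells labelled FAPs in the sorted cultures none of DHRS3, SUN3, WT1 or DTNA, so the fitted values of these 8 genes depend on the prior count and are no measure of size. TSPAN18 stood at 2.05, 2.60 and 2.73 CPM in SCs and 1.27, 0.856 and 1.01 CPM in FAPs of donors 1, 2 and 9, and at 0.0922, 0.209 and 0.228 CPM in SCs and 5.70, 9.85 and 6.71 CPM in FAPs of donors 5, 6 and 10. Without donor 5, 2 of the 10 genes were called.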

How the results depend on the processing

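The counts of 971 genes higher in SCs and 1038 higher in FAPs stayed within 1.5 times under every alternative but thinning. Without the replicate block, which sets aside the pairing by donor, they were 887 and 956, with DESeq2 868 and 912, and without each donor in turn 805 to 1013 and 930 to 1052. With every pseudobulk thinned to the smallest total they were 478 and 472, of 6378 genes tested in place of 11067. The 64 genes whose difference changed with passage were 6 without the replicate block, 102 with DESeq2, 41 thinned, of 7091 genes, and 8 to 334 without each donor, and the cause was not tested. The 959 genes that differed between cultures were 728 without the replicate block, 441 thinned, of 7259 genes, and 725 to 967 without each donor. Of the 239 called genes among those named, 198 kept their call under every alternative that gave a value, SCs without a MYOG UMI not counted. With SCs that had no MYOG UMI, among named genes called with either set of SCs, the sign of the log2FC turned for ATP2A1 (-0.31), CAPN6 (-3.25), CKM (-0.039), DTNA (-3.61), HHATL (-4.31), MEF2C (-1.65), MYOG (-8.01), SMPX (-1.04), TNNT3 (-0.24) and TUBA1A (-0.30), of which MYOG and DTNA were then called higher in FAPs, and over the donors left out in turn the log2FC of TOP2A went from -1.99 (without donor 1) to 0.84. The SC total of donor 2 limits what could be seen for rare genes in its 51 SCs.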
